A study of Homo sapiens with 6 samples.

Results

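The genes described here are 10 that encode or mark the junctions between epithelial cells, namely the cadherins *CDH1*, *CDH2* and *CDH3*, the adhesion molecule *EPCAM*, the claudins *CLDN3*, *CLDN4* and *CLDN7*, occludin (*OCLN*), the scaffold ZO-1 (*TJP1*) and vimentin (*VIM*). They were found by symbol among the 22807 rows of the expression table, and 1 row was found for each of the 10. The material was RNA of MDA-MB-453, a cell line established from a HER2+ breast cancer, in 6 libraries, of which 3 followed scrambled siRNA and 3 followed siRNA against *DUSP6*, a phosphatase that removes the activating phosphates of ERK. All 6 libraries came from the same wild-type cell line, without a drug named in their labels. The legend in the paper gives 3 different siRNAs in each group, and the sources used here do not say which siRNA went into which library, so differences between siRNAs and between cultures cannot be told apart. Bulk RNA was read, so fewer cells that express a gene and less RNA per cell cannot be told apart either.

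Epithelial cells are held together by adherens junctions, in which cadherins bind across the cell border and are tied to actin by catenins, and by tight junctions, in which claudins and occludin form the seal and ZO proteins tie it to the cytoskeleton. E-cadherin (*CDH1*) is the cadherin of epithelia, N-cadherin (*CDH2*) that of neural and mesenchymal cells, and P-cadherin (*CDH3*) is common in basal breast epithelium. In epithelial to mesenchymal transition (EMT), repressors such as *SNAI1*, *SNAI2*, *ZEB1* and *ZEB2* bind E-boxes in epithelial promoters, and a fall of *CDH1* with a rise of *CDH2* and *VIM* is its usual RNA sign.

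The libraries held 45546981 to 85729785 reads. Values are reads scaled to the library by the authors, and 1 read was worth 0.0121 to 0.0202 on that scale. The scaled values summed to 1.03e+06 to 1.14e+06 per scrambled library and 9.21e+05 to 9.25e+05 per *DUSP6* siRNA library. Scaling to total reads alone, which was not tried, would thus raise the differences given here. *DUSP6* itself read 209, 110 and 114 with scrambled siRNA and 39.4, 24.5 and 35.2 with *DUSP6* siRNA (log2 fold change -2.05, SE 0.25, limma adjusted p = 3.09e-04), so the targeted gene was lower in every library labelled *DUSP6* siRNA. Differences were tested with limma on log2(value + 1) for the 12862 genes whose mean value was 1 or more, and called at a Benjamini-Hochberg adjusted p under 0.05. Of the genes tested, 44.5% were called, 19.7% higher and 24.7% lower, and in 57.8% the groups did not overlap. Scrambled siRNA replicate 3 stood apart from the other 2 scrambled libraries across genes, including several of the junction genes. The chi-square of reads per degree of freedom, near 1 for counting error alone, was 198.5 and 161.9 against replicates 1 and 2. It was 66.0 between those 2, and 6.50 to 25.2 between *DUSP6* siRNA libraries. Values without scrambled siRNA replicate 3 are given where it changed a result. Luminal breast markers other than *MUC1* were high in all 6 libraries. The list had a summed value of 6350 to 7917 with scrambled siRNA and 3994 to 4469 with *DUSP6* siRNA. Of the 11 tested, 10 were lower and 1 higher, while *MUC1*, under the filter, did not exceed 1.19. The 7 basal markers tested gave 2 higher and 3 lower, with the sums of the list overlapping between the groups (21.6 to 34.9 and 24.8 to 34.4). Those higher were *KRT17* (log2 fold change 3.06) and *KRT16* (1.04), and those lower *TP63* (-1.95), *KRT15* (-1.86) and *MYLK* (-0.88). *KRT17* passed the filter only through the *DUSP6* siRNA libraries and *MYLK* only through the scrambled ones. The endothelial markers summed to at most 2.07 and the leukocyte markers to at most 6.63 in any library, with none called. The fibroblast markers summed to 81.0 to 105.6 with scrambled siRNA and 164 to 194 with *DUSP6* siRNA mostly through *COL1A1*, the 1 marker tested. *FAP*, under the filter, read 0.119, 0.0766 and 0.0723 with scrambled siRNA and 2.04, 1.33 and 2.09 with *DUSP6* siRNA, while *PDGFRB* did not exceed 0.268 and *COL1A2*, *COL3A1*, *LUM* and *PDGFRA* did not exceed 0.134 in any library. All 18 interferon-induced genes tested were higher, from a sum of 252 to 338 to one of 6016 to 7308. Among scrambled siRNA replicates 1 to 3, *IFIT1* read 4.58, 3.81 and 12.6 and *IFI6* 3.03, 1.82 and 13.1, highest in replicate 3. *MX1* read 0.446, 0.747 and 0.518, highest in replicate 2. The part of these marker and interferon shifts in the results below was not tested.

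Of the 9 junction genes tested, 3 were higher (*CDH2*, *OCLN* and *CLDN7*), 1 was lower (*TJP1*) and 5 were not called, a share close to that of all genes. The same 4 were those whose groups did not overlap. Under quantile normalization the split was 4 higher and 0 lower. *CDH2* alone changed by more than 1 on the log2 scale, and *VIM* was at or near 0 reads in every library. The plot of values by library shows the spread behind each of these calls.

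**Figure D1:**
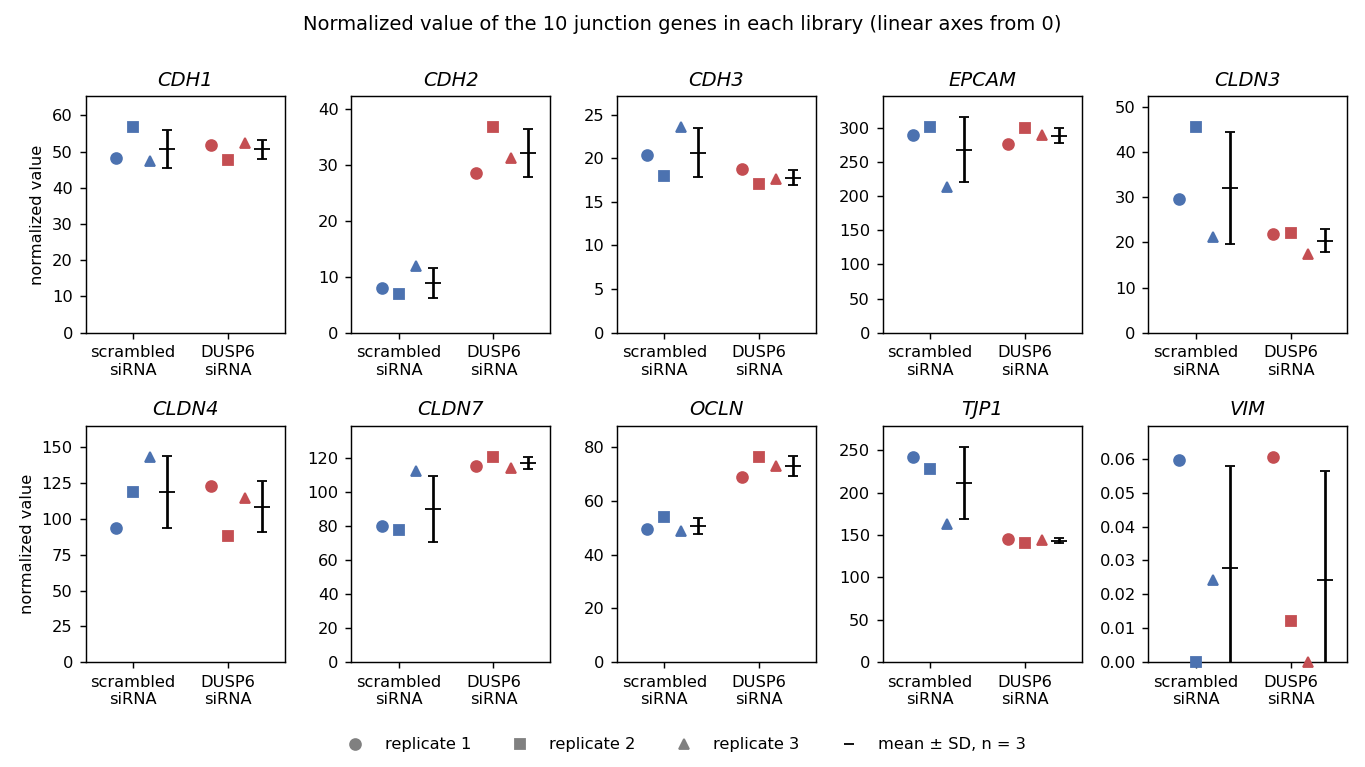
Normalized value (linear axes from 0) of the 10 junction genes in the 3 scrambled siRNA and 3 DUSP6 siRNA libraries, 1 symbol per replicate, with mean ± SD (n = 3) beside them. CDH2 and OCLN lie wholly higher and TJP1 wholly lower with DUSP6 siRNA, while CDH1 and EPCAM overlap.

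*CDH2* encodes N-cadherin (Entrez gene 1000, chromosome 18 of GRCh38.p14, from 27932879 to 28177130 on the minus strand, with 16 exons). Its promoter is shown because it belongs to the junction gene with the largest difference, as the 250 bases before the annotated start, chr18:28177131-28177380, minus strand, 5′ to 3′ (RefSeq, GRCh38.p14), in which no motif is in capitals because neither motif searched below was found:

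CDH2 promoter: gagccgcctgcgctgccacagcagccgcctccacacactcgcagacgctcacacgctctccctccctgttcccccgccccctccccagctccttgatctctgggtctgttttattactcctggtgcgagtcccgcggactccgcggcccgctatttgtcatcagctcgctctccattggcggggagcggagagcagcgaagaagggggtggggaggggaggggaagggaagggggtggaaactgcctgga

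The value of *CDH2* was 7.96, 6.94 and 12.0 with scrambled siRNA (replicates 1 to 3, in this order throughout) and 28.5, 36.8 and 31.2 with *DUSP6* siRNA. The lowest *DUSP6* siRNA library was above the highest scrambled one. The mean rose from 8.95 ± 2.66 (SD, n = 3) to 32.2 ± 4.22 (SD, n = 3), 3.59 times as much, with a log2 fold change of 1.76 (standard error 0.18, 95% interval 1.35 to 2.18, limma adjusted p = 1.32e-04). It stayed between 1.62 and 1.97 when any 1 library was left out, the highest of these without scrambled siRNA replicate 3, and was called each time.

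*CDH1* (E-cadherin, Entrez gene 999) lies on chromosome 16 from 68737292 to 68835537, and *CDH3* (P-cadherin, Entrez gene 1001) ends 3520 bases before it. The value of *CDH1* was 48.2, 56.8 and 47.4 with scrambled siRNA and 51.8, 47.6 and 52.5 with *DUSP6* siRNA. The groups overlapped throughout, with means of 50.8 ± 5.20 and 50.6 ± 2.65 (SD, n = 3). The 95% interval of the log2 difference ran from -0.23 to 0.23 (limma adjusted p = 0.999), so a change of the size seen in *CDH2* lies outside it. *CDH3* read 20.4, 18.0 and 23.5 with scrambled siRNA and 18.7, 17.0 and 17.6 with *DUSP6* siRNA. Its groups overlapped, with a log2 difference of -0.20 (95% interval -0.47 to 0.07, limma adjusted p = 0.204).

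Dividing each value by the length of the gene's MANE Select transcript in kb allows levels to be set between genes. On that scale *CDH2* stood at 19.8%, 14.6% and 30.3% of *CDH1* in the scrambled siRNA libraries and at 66.0%, 92.6% and 71.3% in the *DUSP6* siRNA libraries. N-cadherin RNA thus remained under E-cadherin RNA in all 6 libraries. *CDH3* was at 34.3% to 53.7% of *CDH1* with scrambled siRNA and 36.3% to 39.0% with *DUSP6* siRNA, and the order of *CDH2* and *CDH3* turned over, from a level per kb of 2.23 ± 0.66 against 4.64 ± 0.62 to one of 8.01 ± 1.05 against 3.99 ± 0.20 (SD, n = 3).

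*VIM* (vimentin, Entrez gene 7431, chromosome 10, from 17228241 to 17237593), the intermediate filament of mesenchymal cells, had 4, 0 and 2 reads with scrambled siRNA and 3, 1 and 0 with *DUSP6* siRNA. Its value did not exceed 0.0607 in any library. The 2 libraries at 0 reads allow a value of up to 0.0575 (scrambled siRNA replicate 2) and 0.0464 (*DUSP6* siRNA replicate 3), taking 3 reads as the limit that a count of 0 allows, which covers counting error only. *VIM* was under the filter and no fold is given. Of its exon sequence 12.7% is shared with the antisense gene *VIM-AS1*, which had at most 1 read in any library.

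*EPCAM* (Entrez gene 4072, chromosome 2, from 47369311 to 47387020), a homophilic adhesion molecule of epithelia, was the junction gene with the highest level per kb. Its value was 289, 301 and 214 with scrambled siRNA and 276, 299 and 290 with *DUSP6* siRNA. Scrambled siRNA replicate 3 was the lowest of the 6, and the other 5 lay within 276 to 301. The log2 difference was 0.12 (95% interval -0.17 to 0.42, limma adjusted p = 0.476), and -0.034 without scrambled siRNA replicate 3. Under quantile normalization it was called higher (log2 difference 0.36, limma adjusted p = 0.0451).

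The claudins are the strands of the tight junction. *CLDN3* (Entrez gene 1365) and *CLDN4* (Entrez gene 1364) have a single exon in their MANE Select transcripts and lie 60725 bases apart on chromosome 7 (GRCh38.p14, as for all positions here), from 73768997 to 73770270 and from 73830996 to 73832690 on opposite strands, and *CLDN7* (Entrez gene 1366) lies on chromosome 17 from 7259903 to 7263213. *CLDN3* read 29.7, 45.5 and 21.1 with scrambled siRNA and 21.9, 22.0 and 17.4 with *DUSP6* siRNA. The scrambled libraries spread widely, and the lowest of them lay among the *DUSP6* siRNA libraries. The log2 difference was -0.57 (95% interval -1.10 to -0.04, limma adjusted p = 0.0767), which missed the threshold over all genes, and it was called at -0.83 without scrambled siRNA replicate 3 (limma adjusted p = 0.00709) and stood at -0.29 without scrambled siRNA replicate 2.

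*CLDN4* read 93.5, 119 and 144 with scrambled siRNA and 123, 88.3 and 115 with *DUSP6* siRNA. The groups overlapped, with a log2 difference of -0.12 (95% interval -0.50 to 0.27, limma adjusted p = 0.593). *CLDN7* read 80.0, 77.6 and 112 with scrambled siRNA and 115, 121 and 114 with *DUSP6* siRNA. The 3 *DUSP6* siRNA libraries were close together and just above scrambled siRNA replicate 3, the only scrambled library near them. The mean rose from 89.9 ± 19.3 to 117 ± 3.45 (SD, n = 3), and the log2 fold change was 0.39 (SE 0.14, limma adjusted p = 0.0429). This call was lost in 8 of 14 alternatives, among them leaving out any 1 library other than scrambled siRNA replicate 3, with an adjusted p of up to 0.135 (without *DUSP6* siRNA replicate 2), and without scrambled siRNA replicate 3 the fold change was 0.56 (limma adjusted p = 6.96e-04).

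Occludin is the membrane protein found beside the claudins at tight junctions (*OCLN*, Entrez gene 100506658, chromosome 5, from 69492547 to 69558104). Its value was 49.5, 54.1 and 48.6 with scrambled siRNA and 69.0, 76.5 and 73.0 with *DUSP6* siRNA. Both groups were tight and well apart. The mean rose from 50.8 ± 2.97 to 72.9 ± 3.73 (SD, n = 3), 1.44 times as much, with a log2 fold change of 0.51 (standard error 0.09, 95% interval 0.31 to 0.72, limma adjusted p = 0.00203). *OCLN* was called in each of the 14 alternatives, as was *CDH2*. Part of *OCLN* has a near-identical copy on the same chromosome, the pseudogene *OCLNP1*, so reads could be split or lost between them and the value of *OCLN* is uncertain to that extent. *OCLNP1* itself read 1.53, 1.32 and 1.36 with scrambled siRNA and 1.86, 2.85 and 2.33 with *DUSP6* siRNA, small beside *OCLN* in every library.

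*TJP1* encodes ZO-1, the scaffold under the tight junction that binds both claudins and occludin (Entrez gene 7082, chromosome 15, from 29699367 to 29969049 on the minus strand, with 28 exons). It has several annotated starts, and the window of the outermost, 146581 bases upstream of the MANE Select start, is shown because it is the one of the *TJP1* windows with an E-box. These are the 250 bases at chr15:29969050-29969299, minus strand, 5′ to 3′ (RefSeq, GRCh38.p14), with the E-box in capitals:

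TJP1 outermost promoter: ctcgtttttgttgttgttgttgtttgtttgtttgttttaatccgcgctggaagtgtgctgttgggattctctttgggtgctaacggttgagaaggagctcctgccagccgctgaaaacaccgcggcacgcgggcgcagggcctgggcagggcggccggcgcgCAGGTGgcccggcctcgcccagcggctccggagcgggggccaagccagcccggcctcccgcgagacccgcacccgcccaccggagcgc

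The value of *TJP1* was 243, 228 and 162 with scrambled siRNA and 145, 140 and 144 with *DUSP6* siRNA. The *DUSP6* siRNA libraries were nearly equal and all below the lowest scrambled one, replicate 3. The mean fell from 211 ± 42.7 to 143 ± 2.89 (SD, n = 3), to 0.679 of its level, with a log2 fold change of -0.53 (standard error 0.14, 95% interval -0.85 to -0.21, limma adjusted p = 0.0144). Without scrambled siRNA replicate 3 it was -0.71 (limma adjusted p = 2.35e-04). The call was lost without *DUSP6* siRNA replicate 2 (-0.52, limma adjusted p = 0.0606) and under quantile normalization (-0.36, limma adjusted p = 0.0555).

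*TJP1* and *OCLN* thus moved in opposite directions. Per kb of transcript, *TJP1* stood at 421%, 362% and 287% of *OCLN* in the scrambled siRNA libraries and at 181%, 157% and 170% in the *DUSP6* siRNA libraries, so the lowest scrambled ratio was above the highest ratio with *DUSP6* siRNA. *CLDN7* stood at 71.6% to 94.1% of *CLDN4* with scrambled siRNA and 103% to 150% with *DUSP6* siRNA. For each single gene that did not overlap, the two-sided exact permutation test gave p = 0.1, the smallest that 3 libraries against 3 allow.

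**Figure D2:**
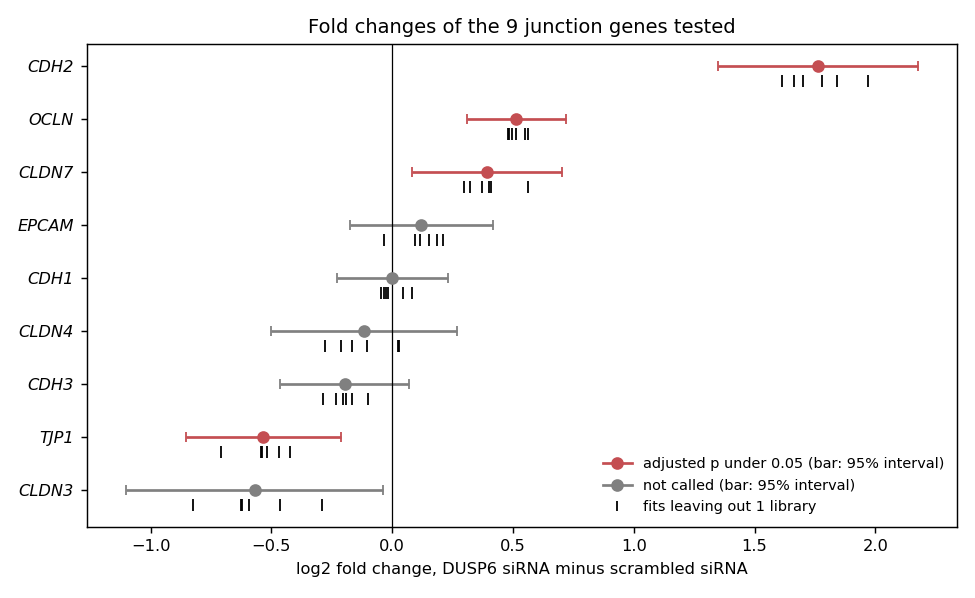
Log2 fold change (DUSP6 siRNA minus scrambled siRNA) of the 9 junction genes tested, with 95% intervals, and ticks under each for the 6 fits that leave out 1 library. CDH2 is the one gene beyond 1, and the ticks of CDH1, EPCAM and CLDN4 fall on both sides of 0.

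Across the genes, the level per kb of transcript with scrambled siRNA was highest for *EPCAM* at 173 ± 30.5 (SD, n = 3). *CLDN4* (70.0 ± 14.8) and *CLDN7* (58.3 ± 12.5) came next and overlapped each other, as did *TJP1* (29.3 ± 5.93) and *CLDN3* (25.2 ± 9.71). *CDH1* (10.6 ± 1.08), *OCLN* (8.21 ± 0.48), *CDH3* (4.64 ± 0.62) and *CDH2* (2.23 ± 0.66) followed in that order with no overlap between neighbours. With *DUSP6* siRNA, *EPCAM* stayed first at 186 ± 7.31, *CLDN7* (75.7 ± 2.24) passed *CLDN4* (64.1 ± 10.7), *OCLN* (11.8 ± 0.60) passed *CDH1* (10.5 ± 0.55) and *CDH2* (8.01 ± 1.05) passed *CDH3* (3.99 ± 0.20), in each case without overlap. The order depends on the length used. With the length of all annotated exons of a gene, *CLDN7* stood above *CLDN4* and *CLDN3* above *TJP1* in both groups, and *OCLN* stayed under *CDH1*.

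**Figure D3:**
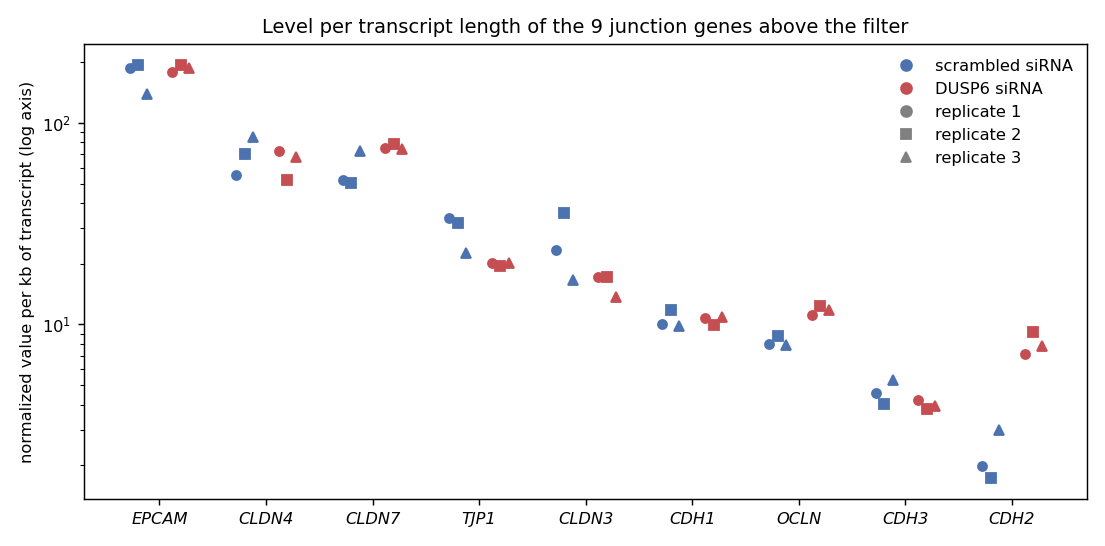
Normalized value per kb of MANE Select transcript (log axis) of the 9 junction genes above the filter in each library, ordered by their mean with scrambled siRNA (blue), beside DUSP6 siRNA (red). Levels run from about that of EPCAM at 173 to that of CDH2 at 2.23 with scrambled siRNA, and CDH2 passes CDH3 with DUSP6 siRNA.

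The partners of these proteins came from lists of other junction genes. Counts in these and the later lists stand beside 19.7% higher and 24.7% lower among all genes tested. Of 9 other cadherins tested, 4 were higher and 1 lower (4 and 2 under median-of-ratios scaling), with a median log2 difference of -0.08 beside -0.01 over all genes, which turned to 0.16 beside 0.02 under quantile normalization (3 higher and 1 lower). *CDH4* (R-cadherin, close to N-cadherin) rose from 1.69 ± 0.75 to 3.66 ± 0.23 (SD, n = 3; log2 fold change 0.83, limma adjusted p = 0.00575), *CDH7* had a log2 fold change of 0.75 and *CELSR3*, a planar polarity cadherin, one of 0.70. *CELSR1* of the same family fell by 0.55 on the log2 scale. *CDH13*, a cadherin held by a lipid anchor and under the filter, was noticed after its values were seen, with 78, 43 and 65 reads with scrambled siRNA and 15, 13 and 6 with *DUSP6* siRNA (limma without a filter, log2 difference -0.70, adjusted p = 0.0024).

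Of 16 genes tested in a list of catenins, nectins and adherens junction partners, 2 were higher and 5 lower, with a median of -0.22. Under quantile normalization 5 were higher and 4 lower. *JUP* (plakoglobin), which serves adherens junctions and desmosomes, read 245, 295 and 210 with scrambled siRNA and 150, 145 and 136 with *DUSP6* siRNA (log2 fold change -0.78, limma adjusted p = 0.00119). *NECTIN1*, an immunoglobulin-type adhesion molecule, fell from 296 ± 22.0 to 145 ± 4.71 (SD, n = 3), with a log2 fold change of -1.02. The list also held *ABLIM1*, an actin-binding LIM protein that is not a core adherens junction protein, with a log2 fold change of -1.22. *NECTIN3*, the binding partner of *NECTIN1*, went the other way, with a log2 fold change of 0.99, as did *CTNNB1* (beta-catenin) with 0.47, whose call was lost without *DUSP6* siRNA replicate 2 (limma adjusted p = 0.0581).

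At the tight junction, 5 other claudins were tested, of which 3 were higher and 1 lower. *CLDN15* had a log2 fold change of 0.66 and *CLDN23* one of 0.44, from mean values of 2.38 and 0.910 with scrambled siRNA to 4.28 and 1.59 with *DUSP6* siRNA. *CLDN23* passed the filter only through the *DUSP6* siRNA libraries. The call of *CLDN23* was lost without scrambled siRNA replicate 1 (limma adjusted p = 0.0703) or *DUSP6* siRNA replicate 1 (limma adjusted p = 0.104). *CLDN12* (0.56) and *CLDN2* (-0.92) are uncertain, because 8.17% and 9.99% of their exon sequence is shared with neighbouring genes, and *CLDN2* (mean 1.83 with scrambled siRNA and 0.496 with *DUSP6* siRNA) passed the filter only through the scrambled libraries. Of 25 other tight junction membrane proteins and scaffolds, 6 were higher and 8 lower, with a median of 0.03. *TJP3* (ZO-3), a scaffold related to ZO-1, read 47.6, 60.2 and 42.4 with scrambled siRNA and 18.6, 16.2 and 15.7 with *DUSP6* siRNA (log2 fold change -1.51, limma adjusted p = 7.09e-05). *CGNL1* (paracingulin), which binds ZO-1, had 268, 157 and 145 reads with scrambled siRNA and 17, 14 and 13 with *DUSP6* siRNA (log2 fold change -1.62). Its mean value was 2.91 with scrambled siRNA and 0.239 with *DUSP6* siRNA, so it also passed the filter only through the scrambled libraries. *MARVELD3*, a membrane protein of the occludin family, read 24.5, 35.7 and 25.3 with scrambled siRNA and 15.0, 15.9 and 16.0 with *DUSP6* siRNA (log2 fold change -0.81, limma adjusted p = 0.00227), uncertain because 16.8% of its exon sequence is shared with a neighbouring gene. Without *DUSP6* siRNA replicate 3 the genes called lower in this list numbered 5. The higher ones were smaller in size, *MPDZ* at 0.43, *ILDR1* at 0.39 and *TJAP1* at 0.37. Leaving out *DUSP6* siRNA replicate 2 or replicate 3 left 1 gene of this list called higher, 2 without replicate 1 of that group and 3 without scrambled siRNA replicate 1. The calls of *MPDZ* and *ILDR1* were lost without *DUSP6* siRNA replicate 2 (limma adjusted p = 0.0853 and 0.0831) and that of *TJAP1* without replicate 3 (limma adjusted p = 0.0648).

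Of 9 desmosome genes tested, 1 was higher and 4 lower, with a median of -0.09 (0.016 under quantile normalization). *DSP* (desmoplakin), the plaque protein that links to keratins, fell from 14.0 ± 1.23 to 9.92 ± 0.34 (SD, n = 3; log2 fold change -0.46, limma adjusted p = 0.00822), *EVPL* (envoplakin) had a log2 fold change of -0.95 and *PKP2* one of -0.42, the last not called without *DUSP6* siRNA replicate 2 (limma adjusted p = 0.0783), where 2 genes of the list were lower. *DSC2*, a desmosomal cadherin, was higher (0.78), a call lost without *DUSP6* siRNA replicate 2 (limma adjusted p = 0.0766) or replicate 3 (limma adjusted p = 0.0538) and in the fit without a filter (limma adjusted p = 0.0502). In a list of partners of *EPCAM* and the matriptase proteases, 4 of 5 genes tested were lower and none higher, beside 24.7% lower among all genes. In that list 2 were lower under quantile normalization or without *DUSP6* siRNA replicate 3. *PRSS8* (prostasin), a membrane protease, fell from 143 ± 9.61 to 61.2 ± 8.48 (SD, n = 3; log2 fold change -1.22, limma adjusted p = 8.01e-05). Its partner *ST14* (matriptase), which cleaves *EPCAM*, had a log2 fold change of -0.38, not called without *DUSP6* siRNA replicate 3 (limma adjusted p = 0.0545) or under quantile normalization (limma adjusted p = 0.0796), and the tetraspanin *CD9* one of -0.62.

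**Figure D4:**
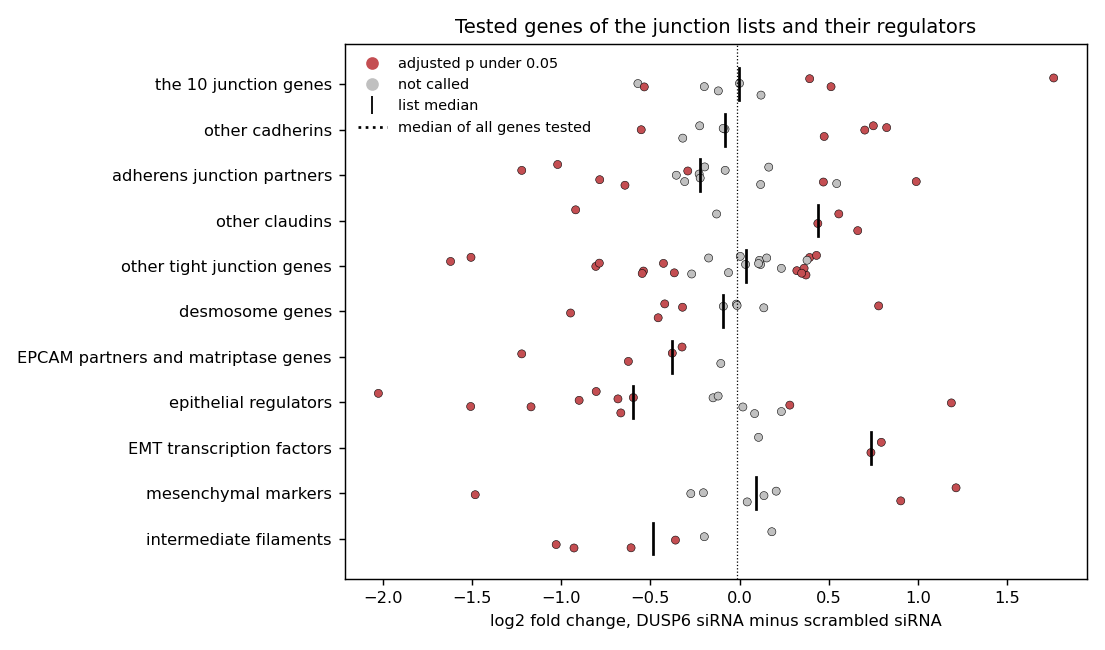
Log2 fold change (DUSP6 siRNA minus scrambled siRNA) of each tested gene in the junction lists and the lists of their regulators, 1 point per gene, red where the adjusted p was under 0.05, with the median of each list as a bar and that of all genes tested as a dotted line. The list of epithelial regulators, which includes RAB25 and MARVELD2, has the lowest median, -0.60, and the junction lists hold calls on both sides of 0 except the list of EPCAM partners and matriptase genes.

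Of 15 genes tested in a list of epithelial transcription and splicing factors, 8 were lower and 2 higher, with a median of -0.60, beside 24.7% lower and 19.7% higher among all genes. The list also held *RAB25*, a trafficking GTPase that was 1 of the 2 higher, and *MARVELD2*, a tight junction membrane protein that stands in the tight junction list too and was not called. *ELF3*, an epithelial ETS factor, read 71.8, 95.1 and 72.1 with scrambled siRNA and 23.3, 13.8 and 20.1 with *DUSP6* siRNA (log2 fold change -2.03, limma adjusted p = 7.02e-05). *ESRP1*, which directs the epithelial splice forms of many adhesion genes, read 472, 443 and 411 with scrambled siRNA and 206, 179 and 203 with *DUSP6* siRNA (log2 fold change -1.17, limma adjusted p = 3.89e-05). Its paralogue *ESRP2* had a log2 fold change of -1.51, uncertain because 5.80% of its exon sequence is shared with neighbours. *KLF4*, a factor of epithelial differentiation, was higher instead, from 32.4 ± 0.85 to 75.8 ± 12.6 (SD, n = 3; log2 fold change 1.19), and so was *RAB25* (0.28), a call lost in 5 alternatives.

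The EMT factors stood at low values in every library. *ZEB1*, a repressor of *CDH1*, had 29, 40 and 40 reads with scrambled siRNA and 89, 143 and 100 with *DUSP6* siRNA. Its value rose from 0.560 ± 0.18 to 1.70 ± 0.13 (SD, n = 3; log2 fold change 0.80, limma adjusted p = 9.50e-04). *TCF4*, an E-box factor, rose from 0.536 ± 0.19 to 1.55 ± 0.10 (SD, n = 3; log2 fold change 0.74, limma adjusted p = 0.00142). Both passed the filter only through the *DUSP6* siRNA libraries, so they had to differ to be tested, and without *DUSP6* siRNA replicate 1 neither was above it. Without replicate 2 or replicate 3 of that group, *TCF4* was under it too, and *ZEB1* was the 1 EMT factor called. *SNAI2* was under the filter, with 9, 3 and 5 reads with scrambled siRNA and 34, 54 and 41 with *DUSP6* siRNA, and was called in the fit without a filter (limma, log2 difference 0.62, adjusted p = 1.64e-04). *SNAI1* had 28, 30 and 33 reads with scrambled siRNA and 32, 44 and 28 with *DUSP6* siRNA, which overlap. *SNAI3* did not exceed a value of 1.09 and shares 10.2% of its exon sequence with an antisense gene, *ZEB2* had at most 7 reads in any library, *PRRX1* and *FOXC2* had at most 1, and *FOXC1* was not called (0.11, limma adjusted p = 0.507). *GSC*, *TWIST1* and *TWIST2* had no row in the table.

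**Figure D5:**
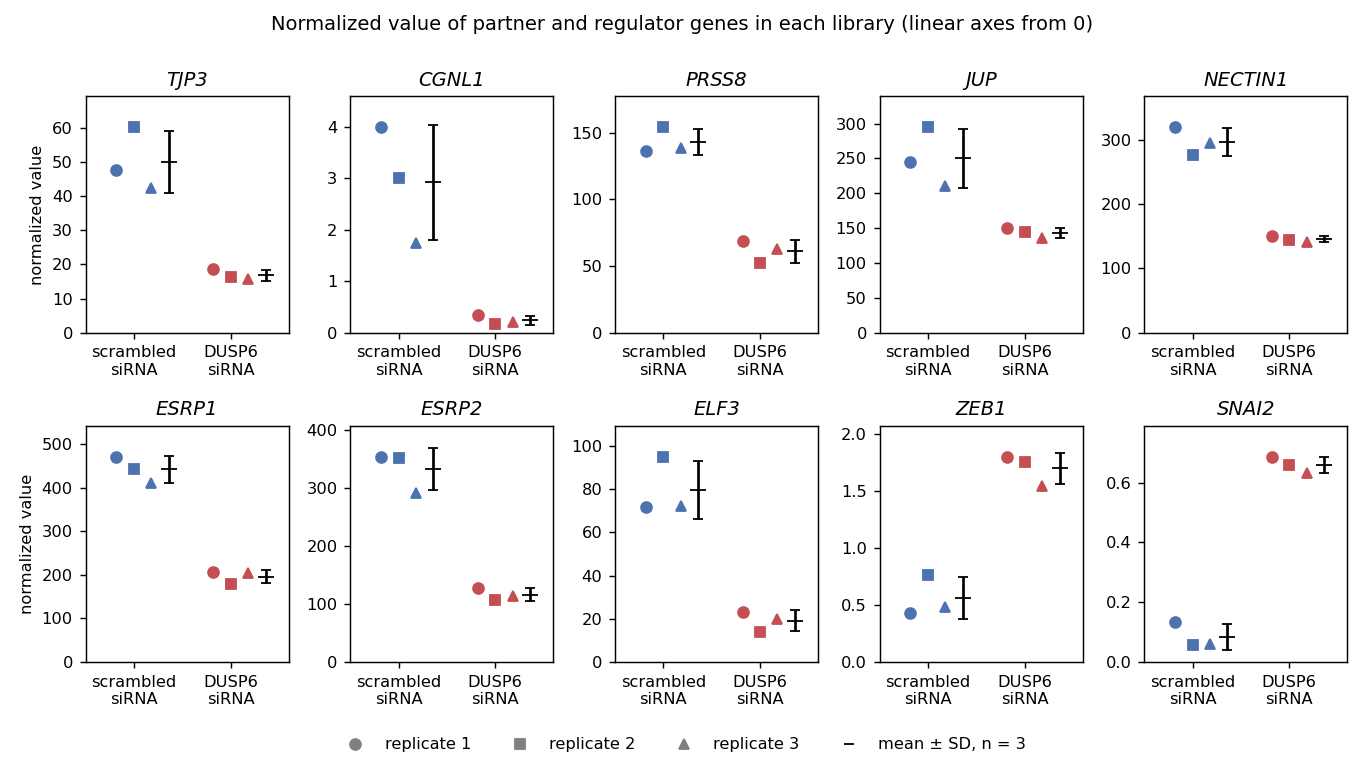
Normalized value (linear axes from 0, a different range in each panel) of tight and adherens junction partners and of epithelial and EMT regulators in each library, with mean ± SD (n = 3). TJP3, CGNL1, PRSS8, JUP, NECTIN1, ESRP1, ESRP2 and ELF3 lie wholly lower with DUSP6 siRNA, and ZEB1 and SNAI2 wholly higher at values under 2.

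The E-box CAGGTG, the site that SNAI and ZEB factors bind, and GCCNNNGGC, the site of AP-2 factors, were searched on both strands in the 250 bases before each annotated start of the junction genes for which RefSeq promoters (GRCh38.p14) were at hand, 7 of 10. *CDH1*, *CDH3* and *EPCAM* had no entry. No window held both motifs. CAGGTG was found in 17.5% and GCCNNNGGC in 19.8% of all 35116 promoter windows of that length. *CLDN7* had 4 E-boxes before its MANE Select start, beginning 174, 135, 20 and 9 bases upstream, and none before its outer start. *OCLN* had 1 before each of its 2 starts, and *TJP1* had 1 before the outermost, 88 bases upstream, as printed above. All 250 bases of the *CLDN7* window with E-boxes and of the outer *OCLN* window lie in annotated exons of the same gene. Of the other *OCLN* window 137 bases do, and of the outermost *TJP1* window 0. No E-box was found in the windows of *CDH2*, *CLDN3*, *CLDN4* or *VIM*, and 1 AP-2 motif was found, in that of *CLDN3*. Of the genes with an E-box, *CLDN7* and *OCLN* were higher and *TJP1* lower.

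Mesenchymal genes other than *CDH2* and *VIM* were few above the filter. Of 27 listed, 8 were tested, 2 were higher and 1 lower (2 and 2 under quantile normalization). *COL1A1* rose from 92.2 ± 12.2 to 173 ± 16.7 (SD, n = 3; log2 fold change 0.90) and *COL5A2* from 4.11, 5.17 and 5.97 to 11.7, 13.9 and 13.4 (log2 fold change 1.21), both chains of fibrillar collagens. *TNC* (tenascin-C), a matrix glycoprotein, fell from 994 ± 270 to 353 ± 84.9 (SD, n = 3; log2 fold change -1.48, limma adjusted p = 9.48e-04). Of other intermediate filament genes that are not keratins, a list that includes the nuclear lamins, 4 of 6 tested were lower and none higher. Under quantile normalization 3 were lower, and among all genes 24.7% were lower. *NES* (nestin) fell from 262 ± 25.6 to 129 ± 21.3 (SD, n = 3; log2 fold change -1.03), *PRPH* (peripherin) had a log2 fold change of -0.93, from a mean of 2.24 to one of 0.676 that passed the filter only through the scrambled libraries, and *LMNB1* (lamin B1) one of -0.61.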

How the data were processed

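RNA was extracted from MDA-MB-453 cells after scrambled or *DUSP6* siRNA (n = 3 libraries each) and sequenced with a stranded mRNA kit. Reads had been aligned by the authors with Rsubread (hg38) and assigned to RefSeq gene models with default settings, under which reads of overlapping genes on either strand are not told apart, and deposited 1 normalized signal value per gene and library. Divided by 1 step per library, 100% of the deposited signal values gave whole reads (tolerance 0.01 reads), and the steps matched edgeR's TMM scaling. The table had 22807 rows, of which 349 had no symbol (0.0624% to 0.0798% of reads).

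Genes whose mean value was 1 or more were tested in R 4.3.3 with limma 3.58.1 (lmFit, then trended eBayes) on log2(value + 1), with Benjamini-Hochberg adjustment over all genes. A difference is on that scale and understates that of genes with low values. Tests were checked on simulated data with the same spread for all genes, which does not cover noise that differs between genes or libraries. Tried besides were a mean of at least 10, no filter, a pseudocount of 0.1, median-of-ratios and quantile scaling, a replicate block, no trend, each library left out, and the quasi-likelihood test of edgeR 4.0.16 on those reads. Gene positions and promoters came from RefSeq (GRCh38.p14), and transcript lengths and exons from GENCODE. Levels per kb used both lengths given in the text. Genes with over 5% of their exons shared with a neighbour are called uncertain.

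The junction genes and all lists were chosen with earlier results of these data known. From each list, up to 3 called genes per direction with the largest change and no overlap were named, and all EMT factors. Some genes of these lists are not reported here. Whether libraries of a group came from separate cultures is not stated, so p-values measure the spread between these libraries.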

Additional observations from a re-analysis of the deposited data

How the results depend on the processing

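Of 126 values of the 9 tested junction genes under the 14 alternatives, 106 kept direction and side of the threshold, 10 lost a call, 3 gained one and 7 changed sign, all 7 in genes that were not called. For the other 41 named genes, 531 of 555 did so, 23 lost a call and 1 changed sign (*FOXC1*, -0.031 under quantile normalization). The sign changes were in *CDH1* (0.081 under quantile normalization, -0.047 to 0.081 leaving out 1 library), *CLDN4* (9.78e-04, and -0.28 to 0.029) and *EPCAM* (-0.034 to 0.21 leaving out 1 library). The number of junction genes called lower was 0 under quantile normalization, 2 with a replicate block and 0 to 2 leaving out 1 library. Over all genes, 1639 were higher with a mean of at least 10, and 1535 to 3213 leaving out 1 library, the lowest without *DUSP6* siRNA replicate 2. A mean of at least 10 leaves fewer genes to test, and leaving out 1 library leaves a smaller group, so these counts are not on a like basis. The cause of the shifts beyond that was not tested. With the replicate block *CLDN3* was called (limma adjusted p = 0.0113) and *RAB25* was not (limma adjusted p = 0.0558), but libraries with the same number did not deviate together (r = 0.00500, 0.0868 and -0.0764 over genes), so the numbers were not taken as pairs. With 3 libraries a group, the intervals given bound the differences of genes that were not called. Counting error matters for *VIM*, *SNAI2* and the other genes under the filter.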
